A study of Mus musculus with 16 samples.

Results

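The comparison described here asks whether an odorant changed what distinguished GFP+ from GFP- cells of the mouse olfactory mucosa. All 16 arrays of the study entered it, as 8 pools of cells, each split by sorting into a GFP+ and a GFP- fraction. For every gene probeset, the GFP- log2 value of a pool was subtracted from its GFP+ value, and the 4 odorant pools were then compared with the 4 vehicle pools on these pool differences. The measurement covered 22206 gene probesets, of which 1080 carried the symbol of an odorant receptor.

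The animals were 24 S100a5-tauGFP mice of both sexes, aged 7 to 12 weeks, kept singly in chambers for 40 h under an air flow of 3.1 L/min. From 26 h onward, that is for the last 14 h, 12 mice received 10 s pulses of odorant every 20 min and the other 12 received filtered air, called vehicle, on the same schedule. Each pool held the sorted cells of 3 mice, and the RNA of its 2 fractions was measured on separate Clariom S arrays. Bourgeonal is the agent given for each odorant sample, whereas the series title speaks of indole, so the compound is called only the odorant here. All mice carried the reporter, and vehicle mice also gave GFP+ cells, so the vehicle pools measure the sort without added odorant.

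S100a5 encodes a calcium-binding protein of mature olfactory sensory neurons, and its level follows the recent activity of each neuron. A tauGFP reporter tied to this gene therefore labels neurons that fired in the preceding hours. Each olfactory sensory neuron expresses 1 odorant receptor gene, so receptor mRNAs that are more abundant in GFP+ cells mark the neurons that were active. An odorant that activated a receptor would be read out as a larger GFP+ minus GFP- difference for that receptor in odorant pools than in vehicle pools. The interaction, in log2 units, is the mean of the 4 odorant pool differences minus the mean of the 4 vehicle pool differences.

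Promoter sequences are given for 3 activity-dependent genes on which the reading of the sort rests. They are S100a5, which drives the reporter, Kirrel2, whose interaction was farthest from 0 in this group, and Ptprn, whose fraction difference was the highest of the group. Each sequence spans 250 bases before to 50 bases after the RefSeq start in the GRCm38.p6 build, written along the gene's strand. Ptprn has 2 such starts, and only the first listed is shown. Capitals mark matches on either strand to TGACG, the core of the cAMP response element, or to CCCNNGGG, the core bound by Olf/EBF factors.
S100a5, chr3:90608272-90608571, + strand: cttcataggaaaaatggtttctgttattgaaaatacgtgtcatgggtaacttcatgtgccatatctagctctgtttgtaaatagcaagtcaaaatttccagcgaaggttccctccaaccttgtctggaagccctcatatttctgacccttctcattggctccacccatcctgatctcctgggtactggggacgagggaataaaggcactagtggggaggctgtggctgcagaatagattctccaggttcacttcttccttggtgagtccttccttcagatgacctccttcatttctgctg
Kirrel2, chr7:30457466-30457765, - strand: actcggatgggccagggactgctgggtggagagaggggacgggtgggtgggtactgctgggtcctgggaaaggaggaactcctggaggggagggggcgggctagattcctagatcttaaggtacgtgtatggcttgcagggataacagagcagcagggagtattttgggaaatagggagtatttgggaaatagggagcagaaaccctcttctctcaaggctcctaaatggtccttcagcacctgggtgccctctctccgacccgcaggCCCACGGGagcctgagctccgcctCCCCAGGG
Ptprn, chr1:75264159-75264458, - strand: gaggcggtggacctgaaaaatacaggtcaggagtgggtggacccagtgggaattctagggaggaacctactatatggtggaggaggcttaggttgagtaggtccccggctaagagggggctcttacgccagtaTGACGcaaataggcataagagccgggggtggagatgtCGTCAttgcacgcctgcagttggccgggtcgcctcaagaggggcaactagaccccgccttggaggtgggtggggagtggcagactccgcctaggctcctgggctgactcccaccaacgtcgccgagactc
The Kirrel2 window held 2 matches to CCCNNGGG and the Ptprn window held 2 matches to TGACG, while the S100a5 window held 0 of either. Among all 32851 RefSeq promoter windows of this length, 20.8% held TGACG and 13.7% held CCCNNGGG, and the letters of the 2 motifs allow no overlap.

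No gene's GFP+ minus GFP- difference was shown to depend on the odorant. In limma with Benjamini-Hochberg adjustment, 0 of 22206 probesets passed an adjusted p of 0.05 (0% called), and the smallest adjusted p was 0.43. At an unadjusted p under 0.05 there were 1460 probesets (6.57%), with 836 higher (3.76%) and 624 lower (2.81%) in odorant pools. The 4 odorant pools all lay above the 4 vehicle pools for 456 probesets (2.05%) and all below them for 393 (1.77%). The median interaction over all probesets was 0.010, and the median size of an interaction, whatever its sign, was 0.20. These p-values measure the spread between pools of 3 mice.

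The sort itself gave large and repeatable differences. Averaged over the 8 pools, 3390 probesets were higher (15.3%) and 2871 lower (12.9%) in GFP+ cells at an adjusted p under 0.05 in limma. Across genes, pool differences of 2 odorant pools correlated with r between 0.746 and 0.812. Those of 2 vehicle pools correlated with r between 0.740 and 0.856, and those of an odorant with a vehicle pool with r between 0.749 and 0.841. The ranges overlapped, so an odorant pool resembled a vehicle pool about as closely as another odorant pool. These correlations describe genes within pools, and genes are not independent replicates.

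**Figure D1:**
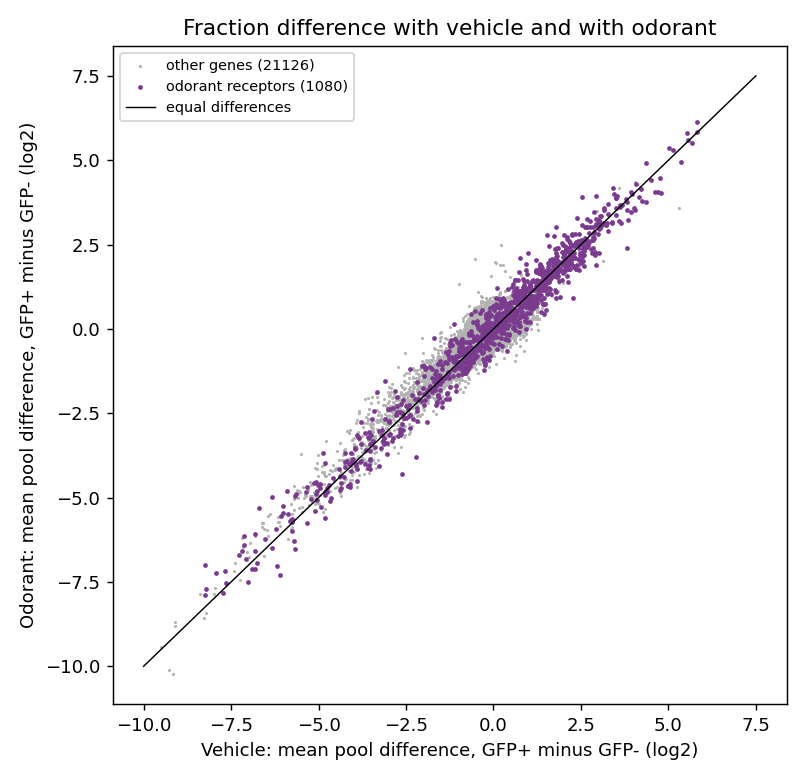
Mean pool difference (GFP+ minus GFP-, log2) of each gene probeset in the 4 vehicle pools (horizontal axis) and the 4 odorant pools (vertical axis); purple points are the 1080 odorant receptors, grey points the other genes, and the line marks equal differences. The points follow the line over the whole range, with receptors at both ends.

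How strongly the fractions differed did not depend detectably on treatment. The SD of the pool difference over all genes was 1.03, 0.913, 0.881 and 0.873 in odorant pools 1 to 4. In vehicle pools 1 to 4 it was 0.926, 1.01, 1.06 and 0.931, so the groups overlapped. The mean was 0.925 ± 0.074 (SD, n = 4) with odorant and 0.983 ± 0.066 (SD, n = 4) with vehicle, a difference of -0.058. A two-sided exact permutation test over the 70 splits gave p = 0.257, where the smallest p possible is 0.0286. Over odorant receptors alone the SD was larger, 2.42 with odorant and 2.45 with vehicle, and the same exact permutation test gave p = 0.60.

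Taking the difference within a pool sharpened the test for most genes. The median SE of the interaction was 0.244 within pools and 0.274 when the 16 arrays were treated as independent, and it was smaller within pools for 71.0% of genes. Of the 1460 probesets at an unadjusted p under 0.05 within pools, 942 were also among the 1093 found with independent arrays, where limma again called 0. Among the activity-dependent genes, Kirrel2 had an SE of 0.20 within pools against 0.50 with independent arrays, and Rtp1 gained nothing, at 0.16 against 0.15. The Kirrel2 level in the 4 odorant pools ran from 14.53 to 15.95 in GFP+ cells and from 13.08 to 14.92 in GFP- cells, and the same pools were high or low in both fractions.

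Genes whose level follows odor-evoked activity were higher in GFP+ cells in odorant and vehicle pools alike. Of the 8 in the list, 6 were higher in GFP+ cells at an adjusted p under 0.05 over the 8 pools, and the median fraction difference was 1.34. None had an interaction that passed the adjusted threshold in limma, and 1 of the 8, Kirrel2, had an unadjusted p under 0.05. The study's reporter gene S100a5 had pool differences of 0.90, 1.01, 1.26 and 1.40 with odorant and 0.77, 0.98, 0.67 and 1.31 with vehicle. It was higher in GFP+ cells in all 8 pools, and the 2 groups overlapped. Its interaction was 0.21 (95% interval -0.25 to 0.67, limma adjusted p = 0.87).

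Kirrel2, a cell adhesion molecule that helps sort olfactory axons into glomeruli, had the largest interaction of the group, and it was negative. Its pool differences were 1.44, 1.03, 0.90 and 0.88 with odorant and 1.79, 1.35, 1.65 and 1.60 with vehicle. Only odorant pool 1 reached into the vehicle range. The interaction was -0.53 (95% interval -0.97 to -0.096, limma adjusted p = 0.72). Between treatments the mean Kirrel2 level was 0.43 higher with odorant in GFP+ cells and 0.96 higher in GFP- cells.

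The other activity-dependent genes had intervals that included 0. Ptprn, a membrane protein of dense-core vesicles, differed between fractions by 1.43 to 2.85 with odorant and by 1.66 to 2.64 with vehicle, and its interaction was -0.03 (95% interval -0.77 to 0.70). The calmodulin-binding peptide gene Pcp4l1 had an interaction of 0.20, Cidea, a lipid droplet protein, 0.17, and Lrrc3b, a leucine-rich repeat membrane protein, -0.06. All 4 were higher in GFP+ cells in all 8 pools. Rtp1, a chaperone that carries odorant receptors to the cell surface, had an interaction of 0.05 and the detoxifying enzyme Nqo1 one of 0.15. Neither was higher in GFP+ cells at an adjusted p under 0.05 in limma, with mean fraction differences of 0.10 and -0.06. Omp, which marks every mature olfactory sensory neuron, had log2 levels of 18.53 to 18.75 on the 16 arrays. Its pool differences ran from 0.061 to 0.17 with odorant and from -0.019 to 0.12 with vehicle, and its interaction was 0.05. The sign of the Rtp1 interaction turned under quantile normalization and that of Rtp1 and Omp when array medians were subtracted.

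**Figure D2:**
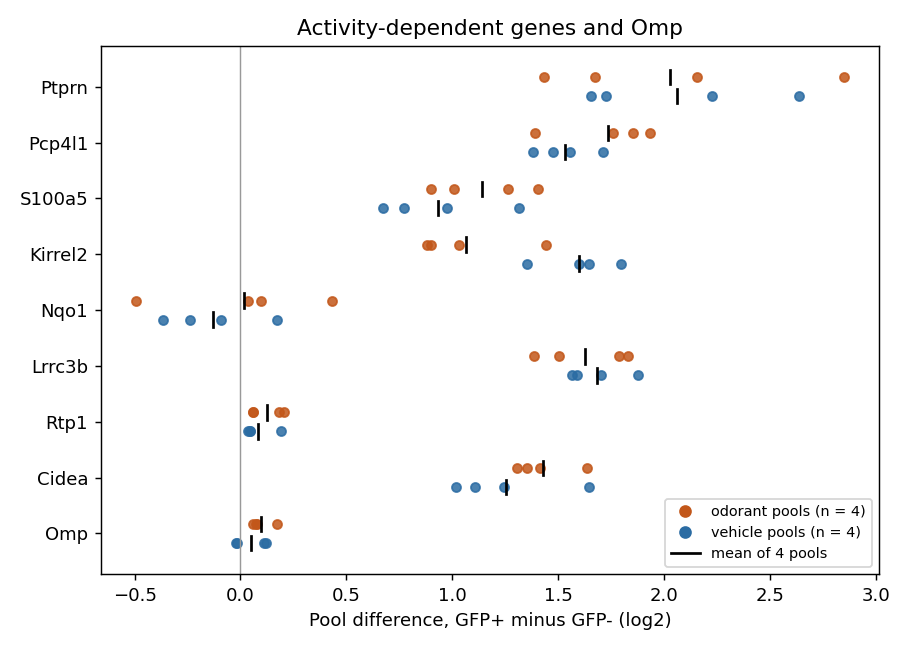
Pool difference (GFP+ minus GFP-, log2) of the 8 activity-dependent genes and Omp in each odorant pool (orange, n = 4) and vehicle pool (blue, n = 4); bars mark group means. The colours overlap for all 9 genes; Kirrel2 comes closest to separation, at 0.88 to 1.44 with odorant and 1.35 to 1.79 with vehicle.

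Within pools, the share of odorant receptors with a small p value was close to that of the whole array, and it moved with the design. None of the 1080 passed the adjusted threshold in limma, and 69 had an unadjusted p under 0.05, or 6.39% against 6.57% of all genes. Of these, 46 were higher and 23 lower in odorant pools. With the pool number as a replicate block, 112 of 1080 receptors and 1369 of 22206 genes had such a p, a larger share of receptors. With all arrays independent these were 33 of 1080 and 1093 of 22206, a smaller share of receptors. Limma called 0 genes in both designs. The 4 odorant pools lay entirely above the vehicle pools for 15 of the 1080 receptors and entirely below for 3. These are smaller shares than the 2.05% and 1.77% of all genes. Of the 15, 8 were under background on all 16 arrays and 4 were above it on all 16. Of the 46 higher at an unadjusted p under 0.05, 14 were under background on all 16 arrays. The median receptor interaction was 0.020, and it was -0.03 when array medians were subtracted.

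The intervals, which are not adjusted for the number of probesets, give a range for the interaction of 1 receptor at a time. They do not give the size of response that would have been called, since receptors with intervals clear of 0 were also not called. Receptors were measured less precisely than most genes, with 95% intervals whose half-width had a median of 0.81, against 0.54 for all genes. The upper bound lay under 1 log2 unit for 667 of the 1080 receptors and under 2 log2 units for 1045. The whole interval lay within 1 log2 unit of 0 for 405 receptors. Of the 1080, 531 were above array background on all 16 arrays and 124 on none, where background is the 95th percentile of the array's background probesets. Among the 531, 16 receptors were higher and 9 lower at an unadjusted p under 0.05.

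The sort separated receptors far more strongly than the odorant did. Over the 8 pools, limma called 474 receptors in favour of GFP+ cells and 340 in favour of GFP- cells, and 382 and 278 of these had the same sign in every pool. Olfr309 had the highest mean fraction difference, 5.98, with 6.46, 6.19, 6.38 and 5.54 in odorant pools and 5.63, 7.40, 5.20 and 5.08 in vehicle pools. Olfr536 followed a similar course, with pool differences from 5.33 to 6.05 with odorant and from 5.10 to 6.29 with vehicle. At the other end, Olfr1297 ran from -8.99 to -6.29 with odorant and from -9.12 to -7.57 with vehicle. The groups overlapped for each of these 3 receptors.

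Among the 474 receptors higher in GFP+ cells the median interaction was 0.021, with 20 higher and 11 lower at an unadjusted p under 0.05. Among the 340 lower in GFP+ cells the median was 0.019, with 18 higher and 8 lower. Of the 5 receptors highest and the 5 lowest in the sort, Olfr393 had the largest interaction, 1.25 (95% interval 0.19 to 2.31, limma adjusted p = 0.72). Its pool differences were -5.63, -7.04, -8.01 and -7.32 with odorant and -9.03, -8.55, -7.53 and -7.89 with vehicle, so that the groups overlapped. In GFP+ cells Olfr393 was above background on 4 of 4 odorant and 1 of 4 vehicle arrays. With values under background set to it, the group means were -7.00 with odorant and -7.71 with vehicle.

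The receptors with the smallest p values are described as such, since none passed the threshold and all 10 had an adjusted p of 0.72 in limma. Olfr1480 had pool differences of 3.43, 2.93, 4.37 and 4.94 with odorant against 2.49, 2.53, 2.53 and 2.57 with vehicle. The groups did not overlap, and the interaction was 1.39 (95% interval 0.56 to 2.22). Its GFP+ level was 9.30 to 10.40 with odorant and 8.83 to 9.97 with vehicle. In GFP- cells it was above background on 0 of 4 odorant arrays and 3 of 4 vehicle arrays. With values under background set to it, the interaction was 0.63. Under that floor the median interaction over all probesets was 0.16, so a floored interaction also includes differences between array backgrounds.

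Olfr1417, Olfr1302 and Olfr617 were above background on all 16 arrays, and their odorant pools lay above all vehicle pools. Olfr1417 ran from 0.86 to 1.56 with odorant and from -0.82 to 0.50 with vehicle, an interaction of 1.10 (SE 0.30). Olfr1302 ran from 0.92 to 1.74 with odorant and from 0.30 to 0.85 with vehicle, an interaction of 0.76 (SE 0.22). Olfr617 ran from 1.25 to 2.29 with odorant and from 0.11 to 1.19 with vehicle, an interaction of 0.96 (SE 0.28). Olfr617 was 0.57 higher with odorant in GFP+ cells, whereas Olfr1302 was 0.93 lower with odorant in GFP- cells and 0.17 lower in GFP+ cells.

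Olfr769 and Olfr770 are neighbours on chromosome 10 with no protein-coding gene between them in RefSeq, and their interactions had opposite signs. Olfr770 was lower in GFP+ cells by less with odorant, at -0.38, -2.24, -1.66 and -1.86 against -4.13, -2.82, -2.69 and -2.79 with vehicle. Its interaction was 1.57 (95% interval 0.63 to 2.52). Olfr769 was lower in GFP+ cells by more with odorant, at -3.99, -3.04, -4.98 and -5.23 against -1.44, -2.46, -3.67 and -2.95, an interaction of -1.68 (95% interval -2.88 to -0.49). Its groups overlapped, and it was above background in GFP+ cells on 1 of 4 odorant and 2 of 4 vehicle arrays. With values under background set to it, the Olfr769 interaction was -0.67 and that of Olfr770 was 1.32. Receptors of 1 cluster can be alike in sequence, and whether their probes share signal was not tested.

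Olfr821 was the only one of the 5 receptors with the smallest p on the negative side to be above background on all 16 arrays. Its pool differences were -0.51, -0.44, -0.76 and -0.30 with odorant and 0.84, -0.047, 0.013 and 0.16 with vehicle, and the groups did not overlap. The interaction was -0.75 (SE 0.23), and the GFP+ level was 0.75 lower with odorant. Olfr878 had an interaction of -1.21, but its GFP+ values were under background on all 8 arrays. With those values set to background, its fraction difference was at least as low as -5.07 with odorant and -5.15 with vehicle, and the interaction was 0.08. The background itself was 6.61 to 6.87 on odorant and 6.57 to 6.73 on vehicle GFP+ arrays, so that 0.08 gives no direction. Olfr780 was likewise under background on all 8 GFP+ arrays, and its interaction of -0.77 became -0.39 with that floor. Olfr912 was above background in GFP+ cells on 2 of 4 odorant and 4 of 4 vehicle arrays and on none in GFP- cells, with an interaction of -1.06 that became -0.69.

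**Figure D3:**
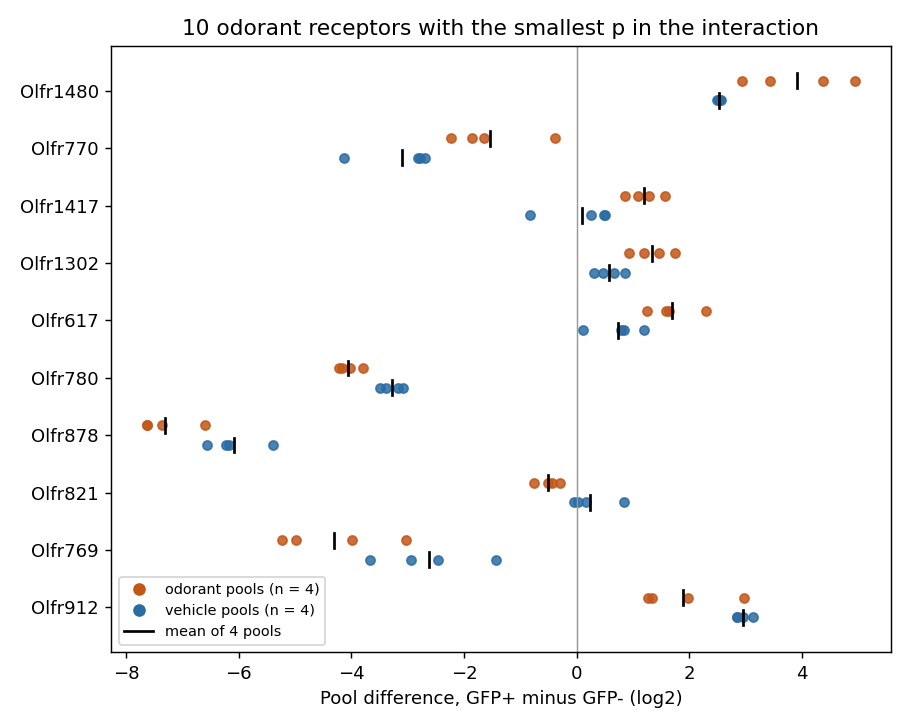
Pool difference (GFP+ minus GFP-, log2) of the 10 odorant receptors with the smallest interaction p, 5 positive above and 5 negative below, in odorant pools (orange, n = 4) and vehicle pools (blue, n = 4), with bars at group means. The 4 vehicle values of Olfr1480 lie between 2.49 and 2.57 while its odorant values run from 2.93 to 4.94, and Olfr769 and Olfr912 overlap.

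Among genes other than receptors that had a non-provisional symbol and were above background on at least 4 arrays, the smallest p belonged to Cmtm7, a MARVEL-domain membrane protein of immune and other cells. It was lower in GFP+ cells in all 8 pools, by -0.39, -0.88, -1.18 and -0.36 with odorant and by -1.89, -2.93, -2.50 and -2.78 with vehicle. The groups did not overlap, and the interaction was 1.83 (95% interval 1.21 to 2.44, limma adjusted p = 0.47). In GFP- cells Cmtm7 was at 7.08 to 7.60 with odorant and 8.01 to 9.53 with vehicle. In GFP+ cells it was above background on 2 of 8 arrays, and with the background floor the interaction was 1.79.

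Of the 8 such genes on the positive side, 2 were above background on all 16 arrays, Bola3 and Tmco1. Sirpb1c, a signal-regulatory receptor of myeloid cells, had an interaction of 1.42, and Glipr2 one of 1.19, and neither was above background on any GFP+ array. With the floor these became 0.90 and 0.85. Bola3, which takes part in assembling mitochondrial iron-sulfur clusters, had pool differences of -0.31, 0.39, 0.45 and 0.79 with odorant and -0.47, -0.73, -1.25 and -0.40 with vehicle, an interaction of 1.04 (SE 0.28, limma adjusted p = 0.72). Tmco1, a calcium channel of the endoplasmic reticulum, had an interaction of 0.75 (SE 0.20). Pdzk1ip1, Ppm1m and Alox15, a lipoxygenase, had interactions of 1.27, 1.17 and 1.26 with overlapping groups, which became 0.72, 0.75 and 0.40 with the floor.

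Genes of the negative side were more often above background, as 7 of the 8 that are no receptors were on all 16 arrays. Fancm, a DNA helicase of the Fanconi anaemia pathway, had pool differences of -0.13, -0.041, 0.098 and 0.11 with odorant and 0.78, 0.77, 0.54 and 1.04 with vehicle. The groups did not overlap, and the interaction was -0.77 (SE 0.18, limma adjusted p = 0.72). Kdm5c, an X-linked histone demethylase, had an interaction of -0.76, the metalloprotease gene Lmln one of -0.75, and Slc39a1, a zinc transporter, one of -0.95. Ppl, which encodes periplakin, Tbc1d17, a Rab GTPase-activating protein, and Glb1l had interactions of -0.87, -0.87 and -0.95. In these 7 genes the fractions differed little with odorant, with group means from -0.34 to 0.14, and GFP+ exceeded GFP- with vehicle, with group means from 0.60 to 1.01. Tcf7l2, a transcription factor of Wnt signalling, had an interaction of -0.86 and was under background on all 8 GFP+ arrays, where the floor gave -0.43.

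The difference between treatments can be set side by side in each fraction. Among the 836 probesets higher at an unadjusted p under 0.05, the odorant-minus-vehicle difference was larger in size in GFP- cells for 62.9%, and among the 624 lower ones for 72.4%. The same share over all genes was 59.4%. The median sizes over all genes were 0.16 in GFP- and 0.12 in GFP+ cells. Among the 10 positive genes with the smallest p the share was 10 of 10, and among the 10 negative ones it was 9 of 10, with Olfr878 the exception. Over all 1080 receptors the share larger in GFP- cells was 52.3%. Receptors on the positive side were like all genes there, with 29 of 46 (63%) larger in GFP- cells. On the negative side receptors split otherwise, with 8 of 23 (34.8%). These shares were not tested.

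The direction of the interaction went with the level of a gene and with its direction in the sort. Of 9869 probesets under background on all 16 arrays, 575 were higher and 232 lower at an unadjusted p under 0.05. Of 9502 above background on all 16 arrays, 136 were higher and 280 lower. The excess of positive interactions thus lay among probesets with no measured signal. Genes higher in GFP+ cells had a median interaction of -0.13, with 64 higher and 235 lower, and genes lower in GFP+ cells one of 0.15, with 184 higher and 47 lower. For both groups of genes the fractions lay slightly closer together with odorant, whereas receptors higher and lower in the sort had medians of 0.021 and 0.019. This contrast was not tested. The split of all 1460 probesets also moved with scaling, from 836 higher and 624 lower as deposited to 655 and 685 after quantile normalization and 601 and 813 after array medians were subtracted.

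Gene lists are described by their counts, beside a share of 51.3% of all genes with a positive interaction. That share includes probesets under background on all 16 arrays, whose median interaction was 0.073. Probesets above background on all 16 arrays had a median of -0.045, and genes higher in GFP+ cells one of -0.13. The negative lists below are to be read beside these medians too. Genes lower in GFP+ cells had a median interaction of 0.15, and positive lists of such genes are to be read beside that. Of the ribosomal protein genes, 40 of 60 were lower in GFP+ cells in the sort. No member of any list passed the adjusted threshold in limma. Ribosomal protein genes, which encode the subunits of cytosolic ribosomes, stood on 1 side, with 58 of 60 positive and a median interaction of 0.40. At an unadjusted p under 0.05, 2 were higher and 0 lower. The list median of the pool differences was -1.38, -0.25, -0.22 and 0.22 in odorant pools 1 to 4 and -0.50, -0.61, -1.34 and -0.73 in vehicle pools 1 to 4. Odorant pool 1 and vehicle pool 3 were low, and the groups overlapped. Neutrophil markers were also lowest in GFP+ cells, relative to GFP- cells, in these 2 pools, with list medians of -8.62 and -8.73, and their part was not tested. Without odorant pool 4 the median interaction was 0.14, and without odorant pool 1 it was 0.69. Rpl21 was at 0.42 and Rps23 at 0.40, with limma adjusted p values of 0.78 and 0.80.

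Oxidative phosphorylation genes, which encode the respiratory chain and ATP synthase, were positive in 70 of 80, with a median of 0.24 and 1 higher and 1 lower at an unadjusted p under 0.05. Their list medians were -0.49, 0.31, 0.20 and 0.49 with odorant and 0.070, 0.0031, -0.36 and -0.068 with vehicle. The same odorant pool 1 and vehicle pool 3 were lowest in their groups. Without odorant pool 4 the median was 0.11, and without odorant pool 1 it was 0.44. The members with the highest values were near 0, with Atp5b at 0.04 and Atp5a1 at -0.13, and the sign of Atp5b turned when array medians were subtracted. Uqcrq, a subunit of respiratory complex III, was at 0.48, with pool differences from -0.15 to 0.56 with odorant and from -0.35 to -0.019 with vehicle that overlapped in odorant pool 1.

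Genes of axon guidance, which steer and sort olfactory axons, were negative in 22 of 24, with a median interaction of -0.21. At an unadjusted p under 0.05, 3 were lower and 0 higher, and these were Kirrel2, Nrp2 and Pcdh17. The groups of Nrp2, a semaphorin receptor, overlapped slightly, at 0.46, 0.40, 0.090 and 0.0088 with odorant and 0.66, 0.68, 1.02 and 0.39 with vehicle. Pcdh17, a protocadherin, ran from 0.022 to 0.53 with odorant and from 0.55 to 1.72 with vehicle, without overlap, and its interaction was -0.92 (SE 0.26, limma adjusted p = 0.72). The members with the highest values, Efna3 and Cntn4, were at -0.14 and -0.11. List medians were 0.40, 0.070, 0.13 and 0.053 with odorant and 0.18, 0.35, 0.57 and 0.20 with vehicle. Leaving out 1 pool moved the list's median interaction between -0.26, without vehicle pool 1, and -0.14, without odorant pool 2.

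Genes of presynaptic vesicle release were negative in 15 of 18, with a median of -0.11 and 1 lower at an unadjusted p under 0.05. That gene was Rims1, a scaffold of the active zone, which ran from -0.45 to 0.10 with odorant and from 0.23 to 0.63 with vehicle, without overlap, an interaction of -0.55 (SE 0.20). The vesicle genes Syp and Snap25 were at -0.09 and -0.02. Without odorant pool 3 the list's median interaction was -0.04, and without odorant pool 1 it was -0.19. Genes of receptor choice, such as the Olf/EBF factor Ebf1, were negative in 16 of 20, with a median of -0.08. Ebf1 itself was at 0.22, 0.20, -0.046 and 0.0047 with odorant and 0.42, 0.43, 0.39 and 0.52 with vehicle, with an interaction of -0.35 (limma adjusted p = 0.77). The list medians of this group did not overlap, at -0.11 to -0.019 with odorant and -0.014 to 0.14 with vehicle, though no member had an unadjusted p under 0.05. Leaving out 1 pool moved its median interaction between -0.13 and -0.05.

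Circadian clock genes were negative in 12 of 15, with a median of -0.19 that was -0.03 without odorant pool 4 and -0.30 without odorant pool 1. Clock was at -0.52 and Cry2 at -0.38, both with unadjusted intervals reaching above 0. Odor transduction genes had a median of -0.07, immediate early genes of -0.03 and immature neuron genes of -0.04, with 0 members of each at an unadjusted p under 0.05. The median of the 12 interferon-stimulated genes was -0.07 and that of the 10 heat shock genes 0.01. Of these medians, those of the immediate early, immature neuron, interferon and heat shock genes turned sign when 1 pool was left out, and that of heat shock genes also when array medians were subtracted. Trace amine-associated receptors, a second family of olfactory receptors, had a median of -0.11 that was -0.18 without vehicle pool 3 and 0.16 without vehicle pool 4, with 2 of 15 higher at an unadjusted p under 0.05, and these 2, Taar7a and Taar8b, were under background on all 8 GFP+ arrays. Among vomeronasal receptors, 319 of 321 were under background on all arrays. By sign, 159 were positive and 162 negative. At an unadjusted p under 0.05, 4 of the 321 were higher and 14 lower, beside 3.76% and 2.81% of all genes.

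**Figure D4:**
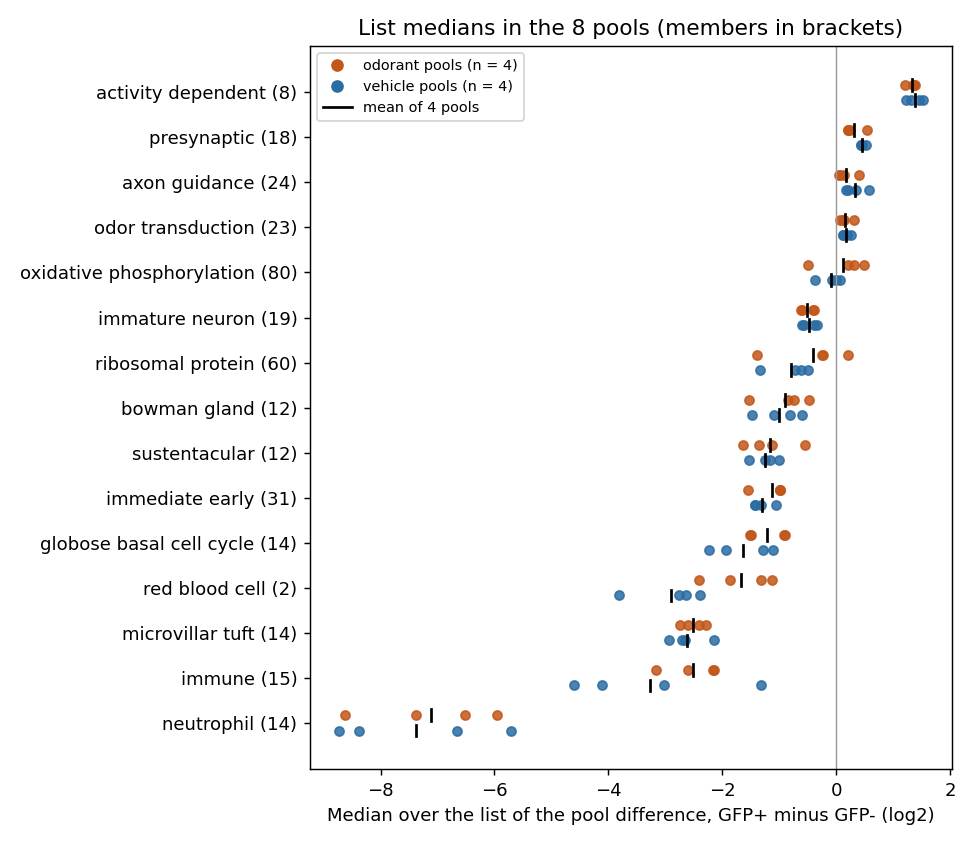
Median over the members of each gene list of the pool difference (GFP+ minus GFP-, log2), 1 point per odorant pool (orange, n = 4) or vehicle pool (blue, n = 4), with bars at group means and the number of members in brackets. Immune and neutrophil markers lie far below 0 and spread most between pools, and the 2 groups overlap in each of the 15 lists plotted. The lists of receptor choice and horizontal basal cells, whose groups did not overlap, are not among them.

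Most marker lists of cells other than neurons had medians below 0 in the sort. Markers of respiratory ciliated cells had a median fraction difference of 0.24 and vascular and stromal markers one of -0.02. Beside the interactions above, the list of 15 leukocyte markers had pool medians of -3.16, -2.14, -2.59 and -2.16 with odorant and -3.02, -4.11, -4.60 and -1.32 with vehicle. The mean level over the members on GFP- arrays was 8.55 to 9.51 with odorant and 8.68 to 9.94 with vehicle. On GFP+ arrays it was 6.08 to 6.70 and 5.95 to 6.92. On GFP+ arrays 9 of the 15 members were at background in each treatment. Its median interaction was 0.38, which was 0.03 without vehicle pool 3 and 0.88 without vehicle pool 4. In these bulk fractions, fewer cells of a type and less RNA per cell cannot be told apart.

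The 14 neutrophil markers had pool medians of -8.62, -7.37, -5.95 and -6.51 with odorant and -6.67, -8.38, -8.73 and -5.72 with vehicle. Their mean level over members was 11.54 to 13.57 on GFP- arrays with odorant and 11.66 to 13.79 with vehicle. Ngp, a granule protein with the highest values of the list, was at -10.47, -10.58, -9.87 and -10.04 with odorant and -8.87, -8.24, -9.76 and -9.82 with vehicle, an interaction of -1.07 (SE 0.35). Its GFP+ value was above background on 1 of 4 odorant and 3 of 4 vehicle arrays, and the background floor made the interaction -0.81. The list median was 0.35, opposite in sign to Ngp and to Lcn2, lipocalin 2, at -0.85, which became -0.44 with the floor. Cxcr2, a chemokine receptor, had pool differences of -4.16, -4.04, -2.27 and -3.02 with odorant and -4.41, -4.45, -4.36 and -4.35 with vehicle. Its interaction was 1.02 without overlap, and it was under background on all 8 GFP+ arrays. The list median was 0.0019 without vehicle pool 3 and 0.82 without odorant pool 1.

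Red blood cell genes were positive in 2 of 2. Slc4a1, the band 3 anion exchanger, was at -1.98, -3.32, -1.84 and -1.61 with odorant and -2.97, -4.56, -3.32 and -3.12 with vehicle, an interaction of 1.31 (SE 0.43, limma adjusted p = 0.72). Alas2, the first enzyme of haem synthesis in red cells, ran from -1.75 to -0.64 with odorant and from -3.05 to -1.80 with vehicle, an interaction of 1.12 (SE 0.33). The GFP- levels of Slc4a1 were 9.95 to 11.65 with odorant and 10.76 to 13.30 with vehicle. Globose basal and dividing cell genes were positive in 11 of 14, with a median of 0.29, and 3 of them, Pcna, Mcm2 and Birc5, were higher at an unadjusted p under 0.05. Birc5 was under background on all 16 arrays and Mcm2 on all 8 GFP+ arrays. Pcna, the clamp of DNA replication, was at -0.62 to -0.15 with odorant and -0.96 to -0.61 with vehicle, and 12 of the 14 members were at background on GFP+ arrays. Without vehicle pool 2 the list median was 0.15, and without vehicle pool 1 it was 0.45. The 8 horizontal basal cell markers, 6 of them under background on all arrays, had list medians that did not overlap, at -0.20 to -0.048 with odorant and -0.72 to -0.37 with vehicle. Their median interaction was 0.13, and -0.15 without dim probesets, which left 1 member. Krt14, a keratin of these cells, was at 0.88 with an unadjusted p under 0.05 and was under background on all 16 arrays. Sustentacular, Bowman gland and microvillar cell markers had medians of 0.08, -0.05 and 0.01, and the sign of each turned when 1 pool was left out. The part of these other cells in the interactions above was not tested.

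The receptors whose pool difference varied most did so with the number of the pool, in odorant and vehicle mice alike. Of the 10 genes with the largest SD within treatment, 9 were odorant receptors and 1 was Camp, the neutrophil cathelicidin. Olfr235 was at -2.02, -2.29, -3.00 and -6.23 in odorant pools 1 to 4 and at -1.62, -1.74, -2.15 and -6.67 in vehicle pools 1 to 4. Both pools numbered 4 stood apart, with GFP+ levels of 5.40 and 5.13 against 8.95 to 10.51 in the other pools, and Olfr235 was under background on those 2 arrays. Its within-treatment SD was 2.20, and its interaction was -0.34 (95% interval -2.95 to 2.27).

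Other receptors followed pools in the same way. Olfr195 was at -3.19, -1.79, -2.66 and -4.87 with odorant and -1.81, -0.75, -2.32 and -5.69 with vehicle. Olfr155 was also lowest in the pools numbered 4, at -1.64, -3.09, -5.03 and -5.67 and at -1.74, -3.13, -3.25 and -6.06. Olfr1320 was positive only in the pools numbered 2, at 0.81 and 0.69, and was between -3.63 and -1.22 in the other 6. Olfr868 was likewise nearest to 0 in those pools, at -0.85 and -0.22 against -4.83 to -2.80 elsewhere. Camp did not share the pattern, at -8.97, -5.07, -5.02 and -5.68 with odorant and -6.20, -8.91, -8.64 and -4.95 with vehicle.

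Over all receptors, the pool differences of an odorant and a vehicle pool of the same number, each centred on its treatment mean, correlated with r between 0.14 and 0.44 in the 4 pairs. The 12 pairs of unlike number gave r between -0.30 and 0.076, and centring alone lowers these. For 15.4% of receptors, both pools numbered 4 were the lowest or both were the highest of their treatment, against 7.49% of all genes. For number 2 the shares were 14.6% and 5.74%, for number 1 they were 10.8% and 6.09%, and for number 3 they were 8.24% and 6.89%. Pools with no link between them would also meet this rule for some receptors, and that share was not computed. The all-gene shares do not stand in for it, so these shares alone show no link. Over all genes the same-number correlation was between -0.13 and 0.16. These are descriptions across genes that share arrays, and no test was made.

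The pools numbered 4 also differed in Y-linked genes. Eif2s3y was at 2.63 to 3.41 on the 4 arrays of the pools numbered 4 and at 9.95 to 11.17 on the other 12. Its pool differences were small, from -0.74 to 0.69. Uty was at 3.69 to 4.41 on those 4 arrays and at 9.51 to 11.18 on the others. The mice were of both sexes by the labels. Without the pools numbered 4, limma called 0 genes, and 1066 had an unadjusted p under 0.05, 82 of them receptors.

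**Figure D5:**
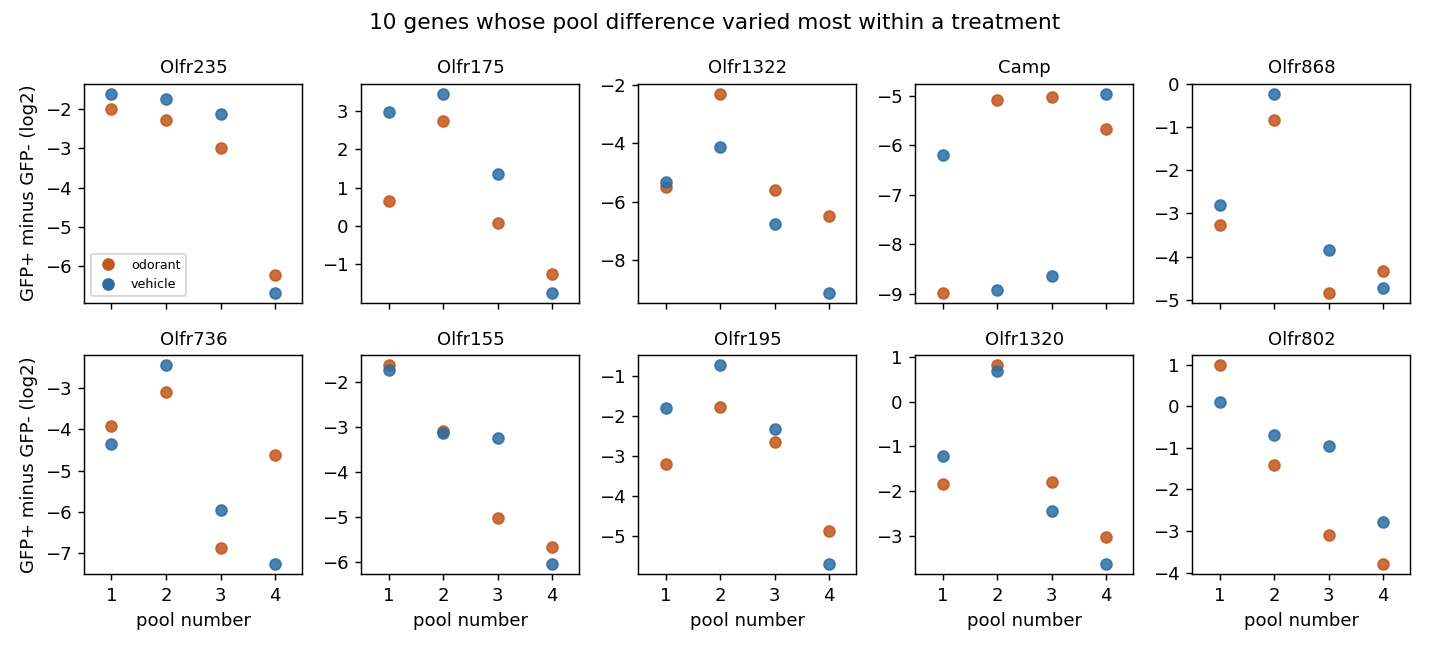
Pool difference (GFP+ minus GFP-, log2) of the 10 genes with the largest SD within treatment, by pool number, with odorant pools in orange and vehicle pools in blue (1 point per pool; vertical scales differ between panels). Odorant and vehicle points of the same number lie close together for most receptors, as for Olfr235 at -6.23 and -6.67 in the pools numbered 4, and apart for Camp.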

How the data were processed

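Per the labels, RNA of sorted cells was hybridised to Clariom S arrays, 1 array per fraction of a pool. The deposited table holds log2 values that the authors made with Affymetrix Expression Console, per the submitters' processing notes. Their summarisation and normalization settings: not given in the sources used here. Values were used as deposited. Of 28846 probesets, 6640 control probesets were left out, and 22206 gene probesets were tested, of which 19572 had 1 symbol in the platform annotation, 0 several and 2634 none. Where a symbol had several probesets (55 symbols), list counts and medians kept each of them. Genes named by rank used the 1 with the highest mean level.

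Arrays of the same treatment and number were taken as 1 pool, since 24 mice in pools of 3 make 8 pools for 16 arrays. Pool differences were fitted with lmFit and eBayes of limma 3.58.1 (R 4.3.3). Tests were two-sided, p-values were adjusted by Benjamini-Hochberg across every gene probeset, and the threshold was an adjusted p of 0.05. The scripts were tested on simulated data. The GFP+ and GFP- arrays of a pool, centred on their group means, correlated with r between 0.014 and 0.36 (odorant) and 0.11 and 0.16 (vehicle). Array background was the 95th percentile of 23 background probesets. The number of arrays limits the precision.

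The members and lists were chosen with earlier results of these data known. Of 319 list symbols 292 matched. Named genes were the 10 positive and 10 negative with the smallest p and the 5 positive and 5 negative receptors (above background on at least 4 arrays, no provisional names), the activity-dependent genes and Omp, the 10 with the largest SD within treatment (above background on at least 8 arrays), the 5 receptors most higher and most lower in the sort, and Y-linked genes. Of the other lists the 2 members with the highest values were named where at least 75% of members lay on 1 side, a restriction chosen after seeing the data, and some members at an unadjusted p under 0.05 were named after their values were seen. Alternatives were other normalizations, filters, floors, priors, weights and blocks, and each pool left out. Figures were drawn with matplotlib 3.10.9.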

Additional observations from a re-analysis of the deposited data

Results flagged for a closer look

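Among 216 groups of 4 pools examined, 11 held 1 pool far from the other 3, by the gap to the nearest of them as a share of the group's range. Chance flags about 1 group in 20. Of single genes, the pool difference of Olfr770 was -4.13 in vehicle pool 1, that of Olfr235 -6.67 in vehicle pool 4 and that of Camp -8.97 in odorant pool 1. Lmln stood apart at 0.12 in odorant pool 4, Omp at 0.17 in odorant pool 2, Rtp1 at 0.19 in vehicle pool 3 and Snap25 at 0.11 in vehicle pool 3.

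Of list medians, odorant pool 1 stood apart in 3 lists, at -1.55 for immediate early genes, 0.55 for presynaptic genes and -0.53 for heat shock genes. In odorant pool 2 the median of the activity-dependent genes was 1.21, just below the other 3 odorant pools.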

How the results depend on the processing

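In 17 alternatives the count of genes called by limma stayed at 0, with the smallest adjusted p between 0.18 and 0.99. Of 56 named probesets, 10 changed sign in at least 1 alternative, and 0 passed the threshold in any. Genes at an unadjusted p under 0.05 were 1460 of 22206. Without dim probesets they were 707 of the 11606 left, a similar share. Receptors at that p were 69, against 44 with an intensity trend and robust prior. Subtracting array medians raised the genes called in the sort from 6261 to 17365, with a split of 15367 higher and 1998 lower against 3390 and 2871, and the median of all genes from 0.096 to 0.44. The interaction split of 836 higher and 624 lower became 259 and 448 among the 11606 probesets that were not dim. With a background floor it became 572 and 687. The causes were not tested.

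Without the replicate block, with 16 arrays as independent, 1093 genes and 33 receptors had an unadjusted p under 0.05. With the title's number as a replicate block across treatments these were 1369 and 112, and limma called 0 in both. Same-numbered odorant and vehicle pools did not all deviate together over all genes, so the main fit did not pair them by number. Over receptors alone the 4 same-numbered pairs did correlate, with r between 0.14 and 0.44. The choice of block therefore matters for receptor counts, and which design is right was not tested.

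The sign turned for Olfr878 with a background floor (0.082), for Ptprn and Cntn4 without both pools numbered 4 (0.12 and 0.037, an alternative chosen after seeing the data), for Rtp1 with quantile normalization (-0.028), and for Rtp1, Omp and Atp5b with array medians subtracted (-0.0018, -0.00071 and -0.0092). With 1 pool left out, Ptprn ranged from -0.31 to 0.17, Lrrc3b from -0.12 to 0.023, Lyz2 from -0.21 to 0.90, Laptm5 from -0.41 to 0.91 and Snap25 from -0.11 to 0.037. Signals under array background, 9869 probesets on all 16 arrays, carry no order. Olfr878 was floored on every GFP+ array, so its turn of sign rests on array backgrounds and its GFP- levels.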
